A study of Mus musculus with 2 samples.

Results

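Wfdc18, Wfdc2, Slpi, Sftpd, Lcn2, Apoe and Agr2 are 7 of the 31053 genes counted in mouse corneal epithelium, grouped as secreted or secretory-pathway proteins of ocular surface defence. They were chosen with their levels by library and keratin-defined lineage in view, so those levels are given as a description without a test. All 7 had UMIs (unique molecular identifiers, each standing for 1 captured RNA molecule) in both libraries. The labels do not describe this gene group, and no protein was measured.

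Transcripts were counted in single corneal epithelial cells of mice of the CycB1-GFP genotype, whose green fluorescent protein is tied to Cyclin B1 and so marks cycling cells. Corneas were digested overnight in Dispase, the epithelium was peeled and trypsinised, and live GFP+ cells were sorted with DAPI as the dead-cell stain, so cells without GFP are not in the data. The study concerns Sox9 and the fate of limbal stem cells, and its 1 group holds 2 replicates with no second genotype or treatment. The barcodes end in 2 numbers that are called library 1 and library 2 here, because nothing links them to the labelled replicates, and the labels do not say whether the replicates came from separate animals.

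The surface of the eye is bathed in tears that carry antimicrobial proteins, protease inhibitors, lectins and mucins, secreted by the lacrimal gland and by the epithelium itself. The cornea proper is marked by the keratin Krt12. The limbus at its rim, home of the stem cells, and the conjunctiva beyond it carry Krt15, with Gpha2 in part of the limbal basal layer and Krt4, Krt13 and Krt19 in mucosal epithelium. Slpi, Wfdc2 and Wfdc18 hold the WAP domain of small protease inhibitors, and Slpi blocks neutrophil elastase. Sftpd is surfactant protein D, a collectin that binds microbial sugars. Lcn2 starves bacteria of iron by binding their siderophores. Apoe is the ligand by which lipoprotein particles are taken up, and Agr2 is a protein disulfide isomerase of the endoplasmic reticulum needed for mucin folding.

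The 2 libraries held 3458 and 3294 barcodes and 19001107 and 18030874 UMIs. Cells with at least 500 genes and under 20% mitochondrial UMIs numbered 3187 and 3001, with medians of 5571 and 5886 UMIs. Only 5 barcode sequences occurred in both libraries, of which 4 were among kept cells. Lineages were cut by the Krt12 share, Krt12/(Krt12 + Krt15), in cells with at least 5 UMIs of these 2 keratins. Corneal-type cells, with a share above 0.8, numbered 2304 in library 1 and 1821 in library 2. Mixed cells, at 0.4 to 0.8, numbered 161 and 164. Cells under 0.4 were split into Gpha2-positive (at least 2 Gpha2 UMIs, 294 and 450 cells), conjunctival-type (at least 3 UMIs of Krt4, Krt13 and Krt19, 120 and 158 cells), double-positive (110 and 244) and Krt15-dominant (neither, 139 and 107). The 59 and 57 cells with too little keratin were left unassigned.

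Lineages were checked against markers, with levels in CPM (a gene's UMIs per 1000000 UMIs of the sum). Krt12 set the cut and is no check. Of the other corneal markers, Aldh3a1 was at 7443 and 11027 CPM in corneal-type cells and at 563.1 to 983.2 CPM in the 4 lineages under a share of 0.4, and Tkt at 6095 and 8510 against 560.5 to 1059 CPM. Slurp1 was at 966.6 and 1173 against 6.94 to 28.4 CPM, while Pax6 overlapped, at 545.7 and 465.1 against 350.9 to 471.2 CPM. The conjunctival name is weaker. Krt4, Krt13 and Krt19 set that cut. Muc4 was at 119.2 and 243 CPM in conjunctival-type cells, against 13.1 and 40.2 in corneal-type and 0 and 4.67 in Gpha2-positive cells. Krt8 was highest there too, at 152 and 548.5 CPM. Krt18 was at 41.1 and 71.0 CPM, against 44.4 and 43.0 in Gpha2-positive and 54.1 and 56.1 in double-positive cells. S100a6 was at 10007 and 9206.5 CPM, against 11450 and 6721 in corneal-type and 11124 and 9937 in double-positive cells. The goblet cell genes Muc5ac, Spdef, Tff1 and Foxa3 were at 0 in every lineage, and Agr3 was at no more than 2.80 CPM. The Gpha2-positive and conjunctival-type cells shared high Krt15 and Krt14. The 8 immune markers summed to between 0 and 68.1 CPM by lineage, mostly Cd74, which was at 0.672 and 61.2 CPM in Gpha2-positive cells, while Fcer1g was at 0 in all 6.

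Each level below is the CPM of summed UMIs in library 1 and then library 2. Intervals are exact 95% Poisson intervals for counting error alone. Wfdc18 was scarce in corneal-type cells and abundant in the Krt15-rich lineages. It stood at 13.5 (11.6 to 15.6) and 38.5 (34.96 to 42.2) CPM in corneal-type cells and at 1921 (1851 to 1993) and 4062 (3977 to 4148) CPM in Gpha2-positive cells. Mixed cells held 131.2 and 787.4 CPM. Krt15-dominant cells held 1238 and 3306 CPM, double-positive cells 1706 and 2873 CPM, and conjunctival-type cells 1115 and 2537 CPM. Every lineage under a share of 0.4 was thus far above the corneal-type cells in both libraries, and library 2 was higher in each lineage. Cells with a Krt12 share under 0.4 carried 93.0% and 92.2% of all Wfdc18 UMIs. After each cell was thinned to 2000 UMIs, Wfdc18 was found in 59.5% and 84.0% of Gpha2-positive cells and in 1.32% and 2.71% of corneal-type cells. Without thinning these shares were 68.7% and 88.0%, and 2.60% and 6.26%.

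The corneal Wfdc18 level was no higher than that of barcodes with few genes. In the 254 and 221 barcodes with fewer than 500 genes, whose medians were 757.5 and 669 UMIs, Wfdc18 was at 48.6 and 197.3 CPM, above its level in corneal-type cells. Whether these barcodes hold free RNA or poor cells was not tested. In library 1 a single corneal-type cell held 87 of the 187 corneal Wfdc18 UMIs, and the level without that cell was 7.23 CPM. The mixed and corneal-type levels also depended on possible doublets. With the 3% of cells of highest doublet score left out, Wfdc18 was at 63.8 and 349.8 CPM in mixed cells and 11.6 and 19.5 CPM in corneal-type cells, while in Gpha2-positive cells it was 1914 and 4051 CPM.

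Wfdc18 lies on chromosome 11 at 83709015 to 83711348, plus strand (GRCm38). Its promoter is printed because so much of the contrast between lineages lies in this gene. Of the 6 members found in the RefSeq promoter table (GRCm38.p6; Sftpd was not in it), Wfdc18 had the letters TATAAA at 31 bases before the start, shown in capitals. On either strand these letters occur in 12.4% of 32851 promoters of the same length, so the match is a description only. An alternative start of Apoe had 2 matches, and the windows of the other members had none. The stretch is chr11:83708884-83709003, read on the plus strand.
Wfdc18: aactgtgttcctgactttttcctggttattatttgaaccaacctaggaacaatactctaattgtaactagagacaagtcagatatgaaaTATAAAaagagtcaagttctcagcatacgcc

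Sftpd (chromosome 14, 41172214 to 41185149, minus strand) followed the pattern of Wfdc18. It was at 0.578 and 3.20 CPM in corneal-type cells (8 and 37 UMIs), 6.77 and 75.3 CPM in mixed cells, and 77.6 and 177 CPM in Krt15-dominant cells. It reached 127.7 (110.2 to 147.2) and 273.4 (251.7 to 296.4) CPM in Gpha2-positive cells, 113.7 and 250.2 CPM in double-positive cells, and 63.0 and 208.1 CPM in conjunctival-type cells. Without the highest doublet scores Sftpd was at 3.19 and 41.5 CPM in mixed and 0.533 and 1.71 CPM in corneal-type cells. Gpha2-positive cells were highest in both libraries, but the Poisson intervals of double-positive cells overlapped theirs. Over the 12 sums of library and lineage, log2(CPM + 10) of Sftpd and Wfdc18 had a Pearson r of 0.979. These points share libraries and cell totals, so r is a description. The genes most like Sftpd were Mfge8 (r = 0.983), Dapk2 (0.980) and Anpep (0.980). Those most like Wfdc18 were Csrp1 (0.991), Tmem176b (0.986) and Mfge8 (0.985), of 5818 genes compared.

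Wfdc2 was the exception among the WAP domain members, because it was nearly level. Its corneal-type level was 460.5 (449.3 to 471.9) and 590.9 (577.0 to 605.1) CPM. Levels were 509.5 and 773.2 CPM in mixed, 636.0 and 645.5 CPM in Krt15-dominant, 602.9 and 719.2 CPM in Gpha2-positive, 527.1 and 768.4 CPM in double-positive, and 472.5 and 611.0 CPM in conjunctival-type cells. The mean log2 ratio of conjunctival-type to corneal-type cells was 0.04 (SD 0.01 over the 2 libraries), against 6.21 (SD 0.23) for Wfdc18. Cells under a Krt12 share of 0.4 held 22.5% and 31.6% of Wfdc2 UMIs, and Wfdc2 was found in 54.6% and 61.7% of corneal-type cells at 2000 UMIs. Wfdc2 stood at 136.2 and 276.2 CPM in the barcodes with few genes, under each of these lineages.

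Slpi was sparse, and its libraries differed between 2.31 times in mixed cells and 22.9 times in corneal-type cells. Corneal-type cells held 137 and 5 UMIs, or 9.89 (8.31 to 11.7) and 0.433 (0.141 to 1.011) CPM, and the 95% counting interval of that ratio was 9.56 to 71.5. In library 1 the level was 34.7 CPM in mixed, 100.0 in Krt15-dominant, 18.8 in Gpha2-positive, 18.03 in double-positive and 21.9 in conjunctival-type cells. In library 2 these lineages held 15.1, 10.9, 4.67, 2.95 and 2.41 CPM, all below library 1. The peak in Krt15-dominant cells of library 1 came largely from 1 cell with 41 of the 67 UMIs, and 39.2 CPM were left without it. Only 2.49% and 0.680% of cells under a Krt12 share of 0.4 had an Slpi UMI at 2000 UMIs per cell.

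Lcn2 was at 18.8 (16.6 to 21.2) and 8.83 (7.20 to 10.7) CPM in corneal-type cells and already at 217.5 and 171.8 CPM in mixed cells. Krt15-dominant cells were highest in both libraries at 365.8 (321.4 to 414.6) and 201.5 (158.3 to 253.0) CPM. Without the highest doublet scores mixed cells held 256.1 and 212.9 CPM, so the lead in library 2 depends on those cells. Gpha2-positive cells held 319.3 and 158.4 CPM, with intervals that overlapped those of the Krt15-dominant cells in both libraries. Double-positive cells held 160.9 and 92.7 CPM and conjunctival-type cells 231.5 and 66.2 CPM. Lcn2 and Slpi were the members with more RNA in library 1, in all 6 lineages, while the other 5 members were higher in library 2 in all 6. S100a8, a subunit of the antimicrobial protein calprotectin, was also higher in library 1, at 132.5 against 3.897 CPM in corneal-type cells and 174.8 against 6.075 CPM in Gpha2-positive cells. Its partner S100a9 was at 220.2 against 13.8 CPM in corneal-type cells. With 1 value per library, a difference between the replicates, animals or preparations cannot be told apart.

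Lcn2 lies on chromosome 2 at 32384633 to 32388252 and Slpi at 164354070 to 164389095, both on the minus strand. Slpi lies 173.3 kb from Wfdc2 (164562413 to 164568510, plus strand), and Mir7678 overlaps Slpi on the same strand. Whether this overlap affected the Slpi counts was not tested. The promoters of Lcn2 and Slpi are shown because both members were higher in library 1. The letters TTGCNNAA, the core bound by C/EBP factors, were found on either strand at 216 bases before the start in Lcn2 and 241 in Slpi, and in no other matched member. They occur in 9.56% of promoters in the table. The stretches are chr2:32387938-32387965 and chr2:164356731-164356757, both read 5′ to 3′ on the gene's strand with the match in capitals. The Lcn2 stretch lies in an exon of an alternative transcript. Both stretches lie inside the gene spans given above, so the starts used here are not the outer ends of those spans. The 173.3 kb to Wfdc2 is measured from the outer end of the Slpi span. A match to the kappa B letters GGGGNNTCC was found in Lcn2 alone, 45 bases before the start and apart from the first motif, and 4.82% of promoters hold one. The AP-1 letters TGANTCA were in none of the windows and in 6.75% of promoters.
Lcn2: gcccttcctgTTGCTCAAccttgcacag
Slpi: gaatttgtaTTGAGCAAtaggttagag

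Apoe (chromosome 7, 19696109 to 19699188, minus strand) was detected widely. Corneal-type cells held 164.1 (157.4 to 171.0) and 305.8 (295.8 to 316.1) CPM, mixed cells 861.6 and 1528 CPM, and Krt15-dominant cells 1180 and 2135 CPM. Gpha2-positive cells were highest in both libraries at 1968 (1897 to 2040) and 2797 (2727 to 2869) CPM. Double-positive cells held 1086 and 1663 CPM, and conjunctival-type cells 728.6 and 861.2 CPM. The barcodes with few genes held 238.3 and 322.2 CPM, so the corneal-type level was at or below theirs. In the 15 cells of library 2 with at least 3 UMIs of immune genes, Apoe had 23 UMIs, and Wfdc18 had 1. No other member had a UMI there, which with 15 cells allows up to 20% of cells with a UMI at their median depth of 1931 UMIs, and sets no limit on cells that express the gene. Genes with a pattern like that of Apoe included the ferroxidase Cp (r = 0.951) and Ccdc3 (0.947).

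Agr2 (chromosome 12, 35992907 to 36004087, plus strand) was the only member of the 7 highest in conjunctival-type cells in both libraries. Its levels were 3.68 (2.74 to 4.84) and 6.15 (4.80 to 7.76) CPM in corneal-type, 24.6 and 33.7 CPM in mixed, 50.8 and 73.5 CPM in Krt15-dominant, and 41.7 and 54.2 CPM in Gpha2-positive cells. Double-positive cells held 65.2 and 82.6 CPM and conjunctival-type cells 87.7 (67.5 to 111.9) and 137.1 (113.1 to 164.7) CPM. Cells with mucosal keratins, with or without Gpha2, were thus the highest 2 lineages in each library, although the intervals of these lineages overlapped in library 1. The intervals of double-positive cells (47 and 140 UMIs) also overlapped those of Krt15-dominant cells (34 and 27 UMIs) in both libraries. The tight junction gene Cldn3 had the pattern most like it (r = 0.997), followed by Pir (0.993) and Cmah (0.985). Agr2 was in 14.9% and 27.1% of conjunctival-type cells at 2000 UMIs, and in 0.834% and 1.05% of corneal-type cells. No Agr2 UMI was seen in the barcodes with few genes, whose UMI totals allow up to 17.9 and 24.3 CPM.

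**Figure D1:**
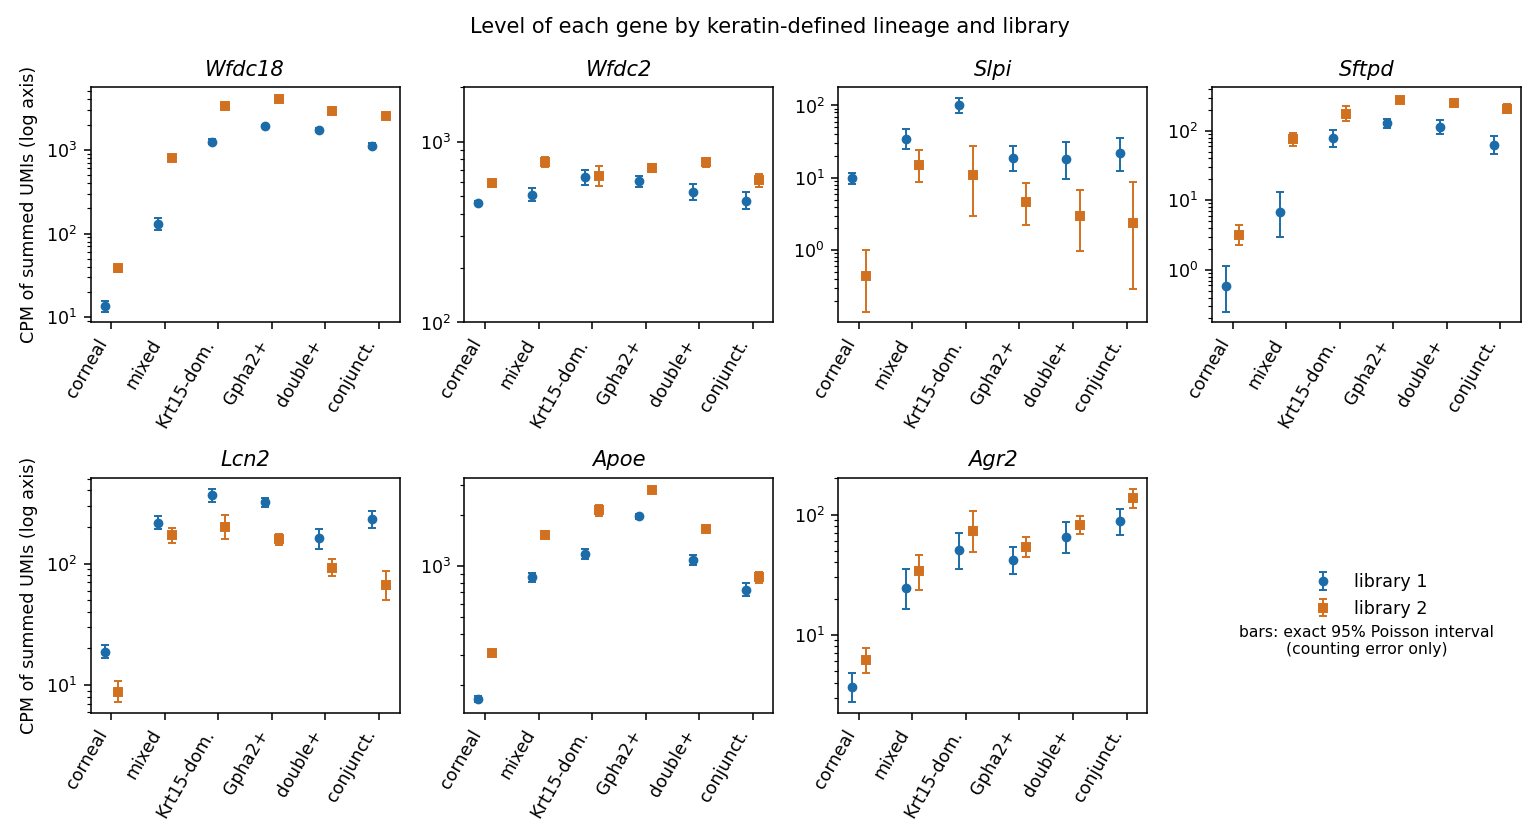
Level of each member, in CPM of summed UMIs on a log axis, for the 6 keratin-defined lineages in library 1 (blue circles) and library 2 (orange squares), with exact 95% Poisson intervals. Wfdc18, Sftpd and Apoe peak in Gpha2-positive cells and Agr2 in conjunctival-type cells, Wfdc2 is nearly level, and Slpi and Lcn2 are the members in which library 1 lies above library 2.

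Along the Krt12 share the members had different profiles. Wfdc18 was at 2344 and 3570 CPM at shares under 0.05, at 1247 and 3250 CPM at 0.05 to 0.2, and at 404.6 and 1671 CPM at 0.2 to 0.35. Sftpd fell in the same bins from 151.8 and 268.5 to 79.8 and 217.5 and then 27.0 and 102.7 CPM. Lcn2 ran the other way, at 170.0 and 95.5, then 340.9 and 149.5, then 424.8 and 394.9 CPM. Lcn2 was still at 78.3 and 24.9 CPM at shares of 0.85 to 0.95, where Wfdc18 was at 20.97 and 294.6 CPM. Apoe was at 1384, 1540 and 1278 CPM in these bins in library 1 and at 1917, 2468 and 2662 CPM in library 2. Both later bins were thus above the first in library 2, and only the middle bin was in library 1. Agr2 was at 72.0 and 86.1 CPM under 0.05 and 30.3 and 59.2 CPM at 0.2 to 0.35. The same keratin UMIs set the bins and the lineages, and these values are a description.

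**Figure D2:**
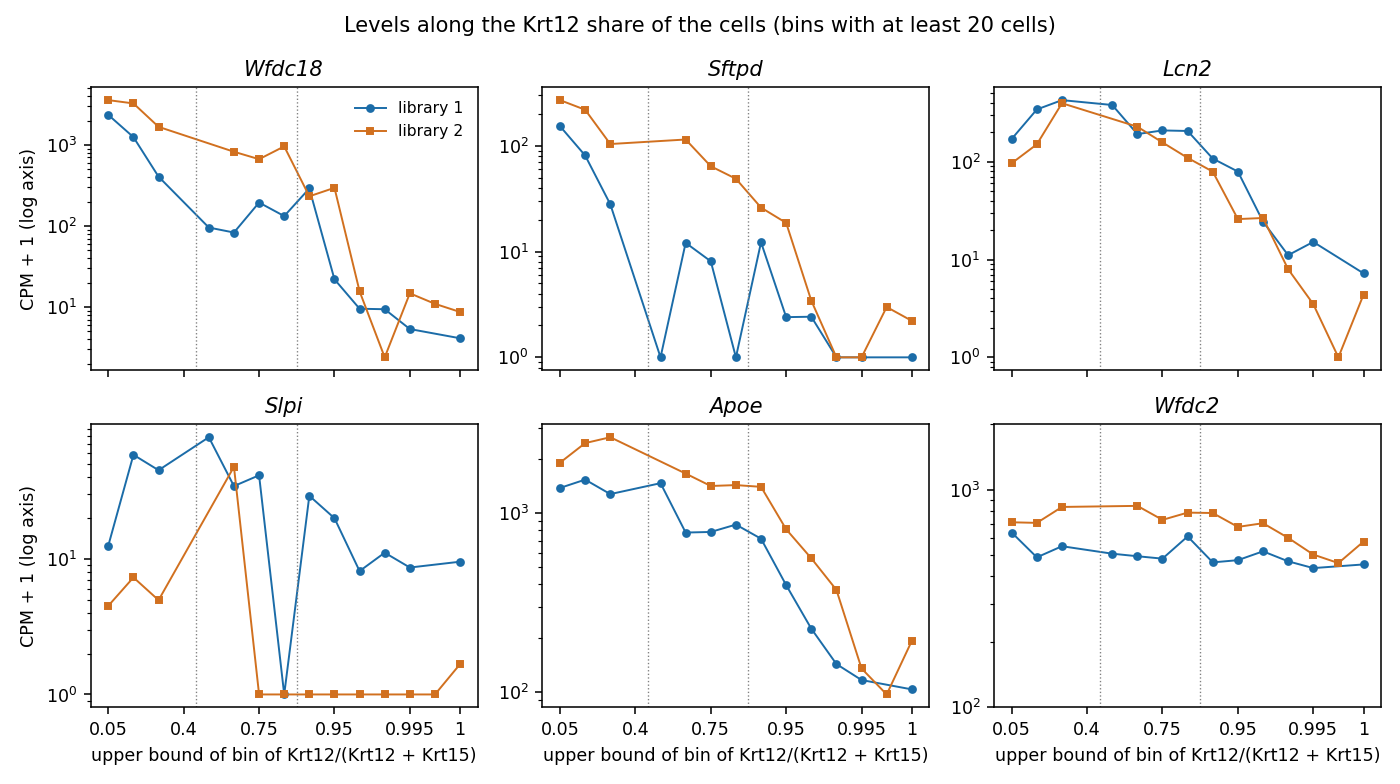
Level (CPM + 1, log axis) of 6 members against the Krt12 share of the cells, in bins of unequal width with at least 20 cells, drawn at equal steps and marked by their upper bound, for library 1 (blue) and library 2 (orange); dotted lines mark the cuts at 0.4 and 0.8. Wfdc18 and Sftpd are highest at the lowest share, Lcn2 peaks at 0.2 to 0.35 in both libraries, and Wfdc2 is nearly level.

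Just inside the cut at 0.4, in the bin 0.35 to 0.4 (16 and 16 cells), Wfdc18 was at 567.3 and 780.0 CPM. Just outside, at 0.4 to 0.45 (20 and 11 cells), it was at 94.6 and 923.3 CPM. Lcn2 was at 402.9 and 253.7 CPM inside and 378.6 and 226.8 CPM outside. At the Gpha2 cut, cells with 1 Gpha2 UMI had 1023 and 1619 CPM of Apoe and cells with 2 had 1406 and 1635 CPM. At the mucosal keratin cut, cells with 1 to 2 UMIs had 46.4 and 72.4 CPM of Agr2 and cells with 3 to 4 had 66.7 and 88.0 CPM.

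Among the cells under a Krt12 share of 0.4, Apoe and Agr2 ran in opposite directions along Gpha2 and the mucosal keratins. Apoe was at 893.0 and 955.3 CPM in cells without a Gpha2 UMI and at 1598 and 2870 CPM in cells with 11 to 20. With rising mucosal keratin UMIs, Apoe was at 1878 and 2966 CPM at 0, 1120 and 2101 CPM at 3 to 4, and 228.4 and 786.2 CPM at 20 to 49. Agr2 went the opposite way on both scales. It was at 78.1 and 125.1 CPM without Gpha2 and 40.3 and 38.8 CPM at 11 to 20 Gpha2 UMIs, and at 42.9 and 42.9 CPM without mucosal keratins and 91.4 and 124.1 CPM at 20 to 49. Lcn2 was lower with mucosal keratins too, at 347.4 and 185.4 CPM at 0 and 78.9 and 89.7 CPM at 20 to 49. Between the same classes Wfdc18 and Sftpd had the direction of Apoe. Wfdc18 was at 927.3 and 2678 CPM without Gpha2 and 2931 and 3654 CPM at 11 to 20. It was at 1816 and 4084 CPM without mucosal keratins and 701.9 and 2400 CPM at 20 to 49. Sftpd went from 49.7 and 171.8 to 128.8 and 285.1 CPM with Gpha2, and from 135.5 and 255.8 to 54.0 and 232.2 CPM with mucosal keratins.

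The members also differed in how their RNA was spread over the cells under a Krt12 share of 0.4. Of the 663 and 959 such cells, the richest 74 and 148 (11.2% and 15.4%) held 50% of the Wfdc18 UMIs, and single cells reached 82 and 124 UMIs. The matching share of cells was 19.8% and 21.5% for Apoe and 19.8% and 19.2% for Wfdc2. Lcn2 was narrower, at 5.73% and 4.69% of cells, and for Slpi 6 and 9 cells held 50%. Depth differs between cells, and no test was made of these shares. Over the 12 sums of library and lineage, Lcn2 and Slpi had an r of 0.686, while Wfdc18 and Slpi had one of 0.034.

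Single cells under a Krt12 share of 0.4, each thinned to 2000 UMIs, were split by a Wfdc18 UMI with their lineages pooled. Sftpd was higher and Lcn2 lower in cells with a Wfdc18 UMI. Lcn2 was found in both classes, with 124 and 180 UMIs in cells with Wfdc18 and 263 and 53 in cells without. In cells with a Wfdc18 UMI (354 and 725 cells), Sftpd was 5.16 (95% counting interval 3.31 to 8.40) and 3.97 (2.61 to 6.34) times its level in cells without one (288 and 157 cells). Lcn2 was 0.384 (0.307 to 0.477) and 0.736 (0.539 to 1.02) times as high, so the interval of library 2 reached 1. Slpi had 1 UMI in Wfdc18-positive and 28 UMIs in Wfdc18-negative cells of library 1, against 3 and 3 UMIs in library 2. In cells with an Lcn2 UMI (170 and 137 cells), Slpi was 6.17 (2.69 to 15.4) and 5.44 (0.728 to 40.6) times as high as in cells without, with 20 against 9 and 3 against 3 UMIs. Before thinning, 1 Krt15-dominant cell of library 1 held 41 of the 124 Slpi UMIs of these cells. It had Lcn2 UMIs and no Wfdc18 UMI. How far the Slpi values of library 1 rest on that cell was not tested, and the counting intervals do not allow for it. Cells are not replicates, and these ratios carry no test.

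**Figure D3:**
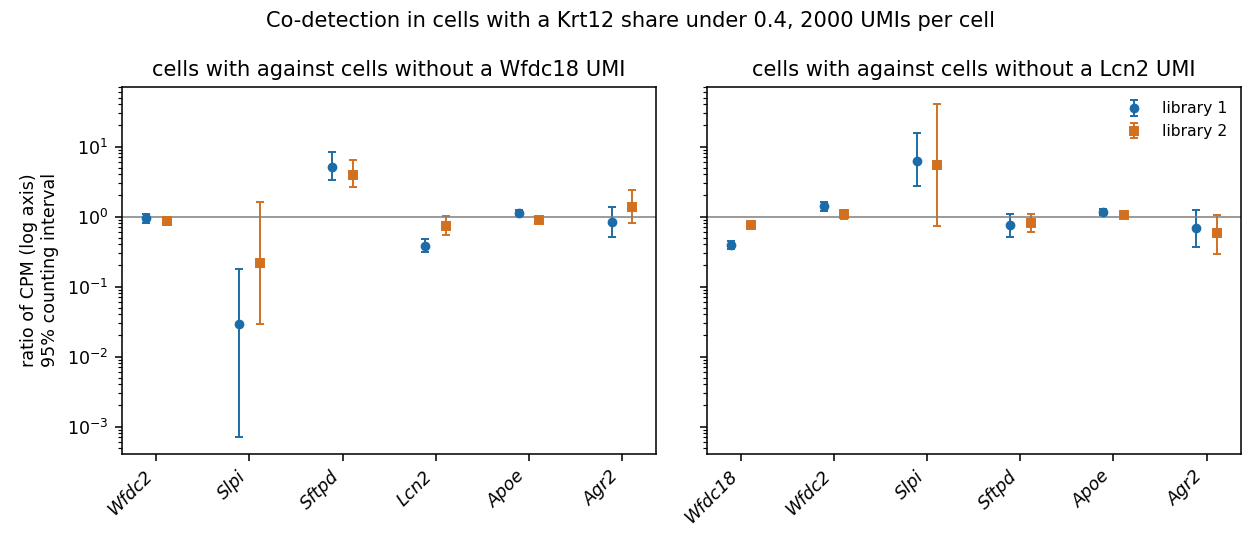
Ratio of CPM (log axis, 95% counting interval) in cells with against cells without a Wfdc18 UMI (left) and with against without an Lcn2 UMI (right), for the other 6 members, in cells under a Krt12 share of 0.4 thinned to 2000 UMIs; circles are library 1, squares library 2, and the grey line is a ratio of 1. Sftpd lies above 1 beside Wfdc18 in both libraries, and Wfdc18 lies below 1 beside Lcn2 in both.

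Genes outside the group were compared between lineages with edgeR's quasi-likelihood test on UMIs summed by library and lineage, with the library as a block and Benjamini-Hochberg adjustment over 9384 genes. Here 2 libraries are the replicates. The block takes out the overall difference between them, so p-values measure how far lineage differences vary between these 2 libraries. That spread was estimated over all lineages in 1 fit and shared in part across genes. Conjunctival-type cells were higher than corneal-type cells for 15.6% of genes and lower for 12.5%, and Gpha2-positive cells were higher for 15.1% and lower for 13.9%. CPM in these comparisons are TMM-scaled. Of 35 secreted antimicrobial and tear proteins, 11 were tested. In conjunctival-type cells 6 were higher and 1 lower, with a median log2 fold change of 1.20 against -0.004 over all genes. They included lactoferrin, Ltf, at 36.8 and 86.2 CPM against 0.224 and 0.0862 in corneal-type cells (log2 fold change 8.20 ± 0.40 SE, edgeR adjusted p = 1.07e-17). The peptidoglycan-binding protein Pglyrp1 was at 719.4 and 952.8 against 93.1 and 112.0 CPM (3.01 ± 0.14), and the defensin Defb1 at 119.0 and 102.2 against 15.9 and 22.7 CPM (2.52 ± 0.20). The interleukin-1 antagonist Il1rn rose by 5.23 ± 0.37 on the log2 scale.

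In Gpha2-positive cells 6 of the 11 were also higher and 1 lower than in corneal-type cells, with a median of 0.44. The secreted ribonuclease Rnase4 was at 66.9 and 103.7 against 13.5 and 18.5 CPM (2.39 ± 0.15, edgeR adjusted p = 7.7e-15), Defb1 rose by 1.79 ± 0.18 and the cysteine protease inhibitor Cst3 by 0.44 ± 0.09. Compared directly, conjunctival-type cells were higher than Gpha2-positive cells for 9.78% of genes and lower for 7.99%. Of the 11 antimicrobial and tear genes, 5 were higher and 2 lower. Pglyrp1 was higher in conjunctival-type cells by 2.81 ± 0.16 (edgeR adjusted p = 1.41e-09) and Ltf by 2.10 ± 0.28 (adjusted p = 8.28e-07), while Rnase4 was lower by 1.19 (log2 fold change -1.19 ± 0.21, adjusted p = 5.94e-05).

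Of 18 other WAP domain genes only Wfdc17 had enough counts to be tested. It was named after its values were seen. Wfdc17 was at 5.66 and 1.23 CPM in conjunctival-type and 6.08 and 10.6 CPM in Gpha2-positive cells and at 0 in corneal-type cells of both libraries, and it was called higher in both comparisons (edgeR adjusted p = 0.000675 and 8.84e-09). The conjunctival-type sums held 730169 and 831365 UMIs of all genes, so the conjunctival call rests on very few Wfdc17 UMIs. Of 4 mucin and goblet genes tested, 3 were higher and 1 lower in conjunctival-type cells, and 3 were lower in Gpha2-positive cells. The membrane mucin Muc4 was at 123.2 and 248.7 CPM in conjunctival-type, 13.6 and 40.0 in corneal-type, and 0 and 4.63 in Gpha2-positive cells. Muc4 is also one of the conjunctival marker genes.

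Folding enzymes of the secretory pathway are the class to which Agr2 belongs. Of 15 tested, 5 were higher and none lower in conjunctival-type cells (median 0.26), and 8 were higher and none lower in Gpha2-positive cells (median 0.35). The chaperone Calr was at 617.4 and 572.4 CPM in conjunctival-type, 597.4 and 625.2 CPM in Gpha2-positive and 476.4 and 351.9 CPM in corneal-type cells. Xbp1, the transcription factor of the unfolded protein response, rose in conjunctival-type cells by 1.05 ± 0.21 (edgeR adjusted p = 0.000161). Among 7 genes of lipoprotein handling, the partners of Apoe, the phospholipid transfer protein Pltp rose in Gpha2-positive cells by 2.81 ± 0.20 and Apoc1 by 0.69 ± 0.12. The endocytic receptor Lrp1 fell in both, to 22.7 and 20.9 CPM in conjunctival-type and 23.7 and 27.3 CPM in Gpha2-positive cells from 33.9 and 36.9 CPM in corneal-type cells (edgeR adjusted p = 0.0245 and 0.0392).

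Of 7 receptors and partners tested, 3 were higher and 2 lower in conjunctival-type cells and 3 were higher and none lower in Gpha2-positive cells. Cd14, the lipopolysaccharide co-receptor that collectins can bind, rose in conjunctival-type cells by 2.99 ± 0.31 (edgeR adjusted p = 4.96e-09). Of 16 inflammatory regulators, 7 were higher and 1 lower in conjunctival-type cells, and 7 were higher and 2 lower in Gpha2-positive cells. Cebpd was at 70.8 and 120.6 CPM in conjunctival-type, 95.3 and 87.9 CPM in Gpha2-positive and 23.0 and 26.6 CPM in corneal-type cells. Nfkbiz, the NF-kappa B cofactor for Lcn2 transcription, was lower in both, with log2 fold changes of -0.76 ± 0.17 and -1.01 ± 0.14. Cebpb, a C/EBP factor like Cebpd, was lower in Gpha2-positive cells. It was at 91.9 and 95.3 CPM there against 131.4 and 144.8 CPM in corneal-type cells (-0.56 ± 0.11, edgeR adjusted p = 0.000157).

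The members themselves were tested only in classes that played no part in their choice: phase of the cell cycle, Krt16 and Sox9. In each comparison UMIs were summed per library and class, giving 4 sums, and edgeR's quasi-likelihood test with the library as a block left 1 residual degree of freedom. Cells were ranked by the ratio of UMIs in lists of S-phase and G2/M genes after the 10% of cells with the lowest share of such UMIs were set aside, and the rest were split by rank into 3 tiers of equal size, of which the top (S tier) and the bottom (G2/M tier) were compared. S and G2/M genes were left out of the counts of calls. Such a ranking reads RNA and not DNA content. In corneal-type cells 28.2% of the 10423 genes tested differed between the tiers, and in cells under a Krt12 share of 0.4 it was 20.5% of 8566 genes.

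Agr2 fell in the S tier in both groups. Corneal-type cells held 5 and 10 Agr2 UMIs in the S tier and 32 and 41 in the G2/M tier, in 691 cells per class in library 1 and 546 in library 2. On the TMM scale this was 1.27 and 3.12 against 7.69 and 11.1 CPM, a log2 fold change of -2.11 ± 0.39 SE (edgeR adjusted p = 6.52e-07). Under a Krt12 share of 0.4 there were 30 and 81 against 104 and 186 UMIs, in 199 and 287 cells per class. This was 31.8 and 60.3 against 96.4 and 113.9 CPM, a log2 fold change of -1.16 ± 0.18 (edgeR adjusted p = 1.9e-09). Both libraries agreed in direction, with -1.60 and -0.92. An Agr2 UMI was found in 13.6% and 18.5% of cells in the S tier and in 36.7% and 41.5% in the G2/M tier, where the median depths were 4536 and 4651 against 5061 and 5517 UMIs.

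The Agr2 difference was present in each lineage. Conjunctival-type cells, where Agr2 was highest, made up 10.1% and 12.5% of the S tier and 22.1% and 18.5% of the G2/M tier. Yet in plain CPM Agr2 was higher in the G2/M tier in 8 of 8 pairs of lineage and library, for example 80.0 against 18.4 and 84.4 against 33.1 CPM in Gpha2-positive cells. Ranking the cells within each lineage, an alternative added after the data were seen, gave -1.10 (edgeR adjusted p = 5.96e-09). DESeq2 gave -1.24 (adjusted p = 0.032), and edgeR without the library block gave -1.16 (adjusted p = 0.0487). In corneal-type cells the fit without the block gave -2.12 (edgeR adjusted p = 0.03), and DESeq2 gave no adjusted p.

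**Figure D4:**
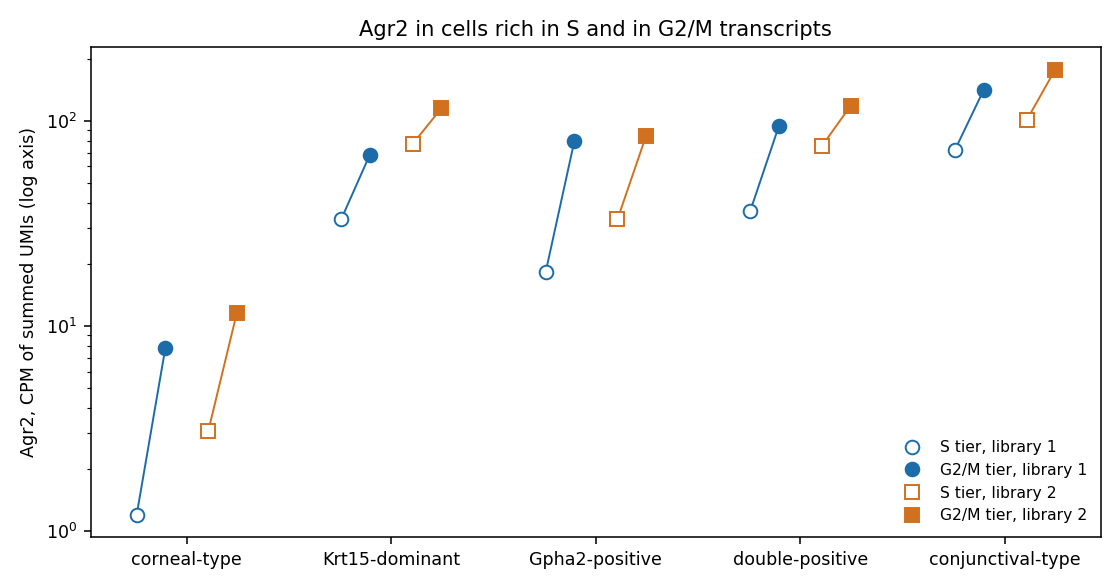
Agr2 in plain CPM (log axis) in the S tier (open symbols) and the G2/M tier (filled symbols) of corneal-type cells and of the 4 lineages under a Krt12 share of 0.4, for library 1 (blue circles) and library 2 (orange squares). In all 10 pairs of lineage and library the filled symbol is the higher one.

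Other folding enzymes moved in both directions. Of 15 tested in corneal-type cells, 4 were higher in the S tier and 2 lower, and under a share of 0.4 5 were higher and 1 lower. Pdia3, Pdia6, Txndc5 and Sdf2l1 were higher in the S tier in both groups, with Pdia3 at 330.0 and 299.2 against 246.8 and 251.5 CPM in corneal-type cells (0.34 ± 0.09, edgeR adjusted p = 0.00158). The chaperone Hsp90b1 was lower in both, at 473.0 and 387.7 against 708.5 and 674.5 CPM in corneal-type cells (-0.69 ± 0.08, edgeR adjusted p = 8.81e-17). The ribonuclease Rnase4 had the Agr2 direction in both, at 32.9 and 47.6 in the S tier against 82.5 and 115.2 CPM in the G2/M tier under a share of 0.4 (-1.29 ± 0.18, edgeR adjusted p = 8.58e-11). S100a9 rose in the S tier in both, as did Defb1, although Defb1 was at 72.1 against 85.3 CPM in library 1 under a share of 0.4. These genes were picked from the lists after their values were seen.

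Slpi and Lcn2 rose in the S tier of cells under a Krt12 share of 0.4, which with Agr2 made 3 of 7 members called, where 20.5% of all genes tested were. Slpi had 69 and 6 UMIs in the S tier against 11 and 5 in the G2/M tier, or 73.1 and 4.47 against 10.2 and 3.06 CPM (2.38 ± 0.37, edgeR adjusted p = 2.83e-09). The fold rested on library 1, since the log2 fold changes were 2.84 and 0.54. Without the cell of each library that held most Slpi, the value was 1.57 (adjusted p = 0.00818), while the call was lost with DESeq2 (1.95, adjusted p = 0.238) and without the library block (edgeR adjusted p = 0.59). Lcn2 was at 288.3 and 169.7 against 259.6 and 84.5 CPM (0.53 ± 0.12, edgeR adjusted p = 0.000246), with log2 fold changes of 0.15 and 1.01 in the libraries. It was higher in the S tier in 5 of 8 pairs of lineage and library. Ranked within lineages, Lcn2 gave 0.34 (edgeR adjusted p = 0.0278), with 264.8 against 274.8 plain CPM in library 1 and 148.1 against 90.3 in library 2, so library 1 showed no rise. The call was lost with DESeq2 (0.56, adjusted p = 0.469) and without the block (edgeR adjusted p = 0.84).

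Wfdc18, Sftpd and Apoe missed the threshold in this comparison, with log2 fold changes of -0.16 ± 0.07 (edgeR adjusted p = 0.09), -0.25 ± 0.12 (0.148) and -0.16 ± 0.07 (0.101). Ranked within lineages all 3 passed it, at -0.23 (adjusted p = 0.00544), -0.36 (0.0211) and -0.23 (0.0114). Wfdc2 was at 605.2 and 762.1 against 561.8 and 717.3 CPM and was not called (0.10 ± 0.09, adjusted p = 0.506). In corneal-type cells, 6 members could be tested and 2 were called, where 28.2% of all genes tested were. Wfdc2 was higher in the S tier by 0.21 ± 0.08 (529.0 and 656.6 against 434.8 and 597.4 CPM, edgeR adjusted p = 0.0301), a call that was lost under 5 alternatives. Wfdc18 differed by -1.08 ± 0.48 (edgeR adjusted p = 0.191), and 1 cell held 87 of the 119 UMIs of the G2/M tier in library 1 against 19 UMIs in the S tier. Without the highest doublet scores the value was -2.05 (adjusted p = 3.97e-10), with 106 UMIs still in that tier, so this call rests in library 1 on that cell.

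In the 10% of cells with the lowest share of S and G2/M RNA, Apoe was lower. Under a Krt12 share of 0.4 it was at 731.3 and 1267 CPM against 1445 and 2039 CPM in the rest (-0.83 ± 0.14, edgeR adjusted p = 0.000651), where 5.44% of 9340 genes differed. The low cells held more conjunctival-type cells, 30.3% and 39.6% against 16.8% and 13.9%, and in library 2 they were shallower, at a median of 3203 against 5233 UMIs. Within lineages Apoe was lower in 7 of 8 pairs, and the fit ranked within lineages gave -0.54 (edgeR adjusted p = 4.91e-05), while on the first ranking the call was lost with DESeq2 (-0.81, adjusted p = 0.171) and without the block (edgeR adjusted p = 0.333). The other 6 members were not called. Their log2 fold changes lay between -0.61 (Slpi, edgeR adjusted p = 0.637) and 0.20 (Agr2, adjusted p = 0.81).

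In corneal-type cells 13.8% of 11082 genes differed between the low cells and the rest, and 2 of 7 members were called. Wfdc2 was at 405.5 and 355.5 against 464.2 and 585.3 CPM (-0.46 ± 0.12, edgeR adjusted p = 0.00481). Apoe was at 142.8 and 195.2 against 165.5 and 301.8 CPM (-0.43 ± 0.13, edgeR adjusted p = 0.0127), at levels at or below those in the barcodes with few genes. Both calls were lost when the lowest 20% were taken, with DESeq2 and without the library block, and that of Apoe also at a mitochondrial share under 10% (edgeR adjusted p = 0.0612). The lists moved differently: 4 of 10 antimicrobial and tear genes and 3 of 4 mucin and goblet genes were higher in the low cells, and none was lower.

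Krt16 is a keratin of wounded and stressed epithelium. Corneal-type cells with at least 3 Krt16 UMIs (215 and 63 cells) were compared with those without any (1882 and 1674), and 2.7% of 11065 genes differed. The high cells were deeper, at medians of 8313 and 7673 against 5508 and 6288 UMIs. Slpi was the 1 member of 7 called. It was at 28.6 and 8.06 against 5.80 and 0.0923 CPM (2.78 ± 0.62, edgeR adjusted p = 0.0273). In library 1 this was 52 UMIs in 26 cells against 61 UMIs in 35 cells. In library 2 it was 4 UMIs in 1 cell against 1 UMI, so the call rests on library 1. Without the richest cell of each library the value was 2.06 (adjusted p = 0.0394), with no Slpi UMI left among the high cells of library 2, and without the block the call was lost (edgeR adjusted p = 0.492). Lcn2 was not called, at 13.2 and 0 against 17.9 and 8.40 CPM (-0.81 ± 0.51, edgeR adjusted p = 0.545). Apoe was lower in both libraries, at 97.3 and 225.6 against 183.4 and 296.9 CPM, without passing the threshold (-0.66 ± 0.19, edgeR adjusted p = 0.0689).

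Sox9, the transcription factor of the study, was the last split. Cells under a Krt12 share of 0.4 with a Sox9 UMI (425 and 459) were set against cells without one that were matched on total UMIs (119 and 168), and 0.587% of 9363 genes differed. Wfdc18 was the 1 member called. It was at 1758 and 3528 CPM with Sox9 and 1395 and 2967 CPM without, a log2 fold change of 0.29 ± 0.06 (edgeR adjusted p = 0.00761), with 0.33 and 0.25 in the libraries. Matched on lineage as well, it was 0.28 (adjusted p = 0.00212). DESeq2 gave 0.29 (adjusted p = 1) and edgeR without the library block 0.28 (adjusted p = 1), and these fits called 0 genes in all. By lineage Wfdc18 was higher with Sox9 in 5 of 8 pairs. Agr2 was at 61.2 and 85.6 against 51.6 and 67.6 CPM (0.31 ± 0.17, edgeR adjusted p = 0.656), and the log2 fold changes of the other 5 members lay between -0.08 and 0.15.

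**Figure D5:**
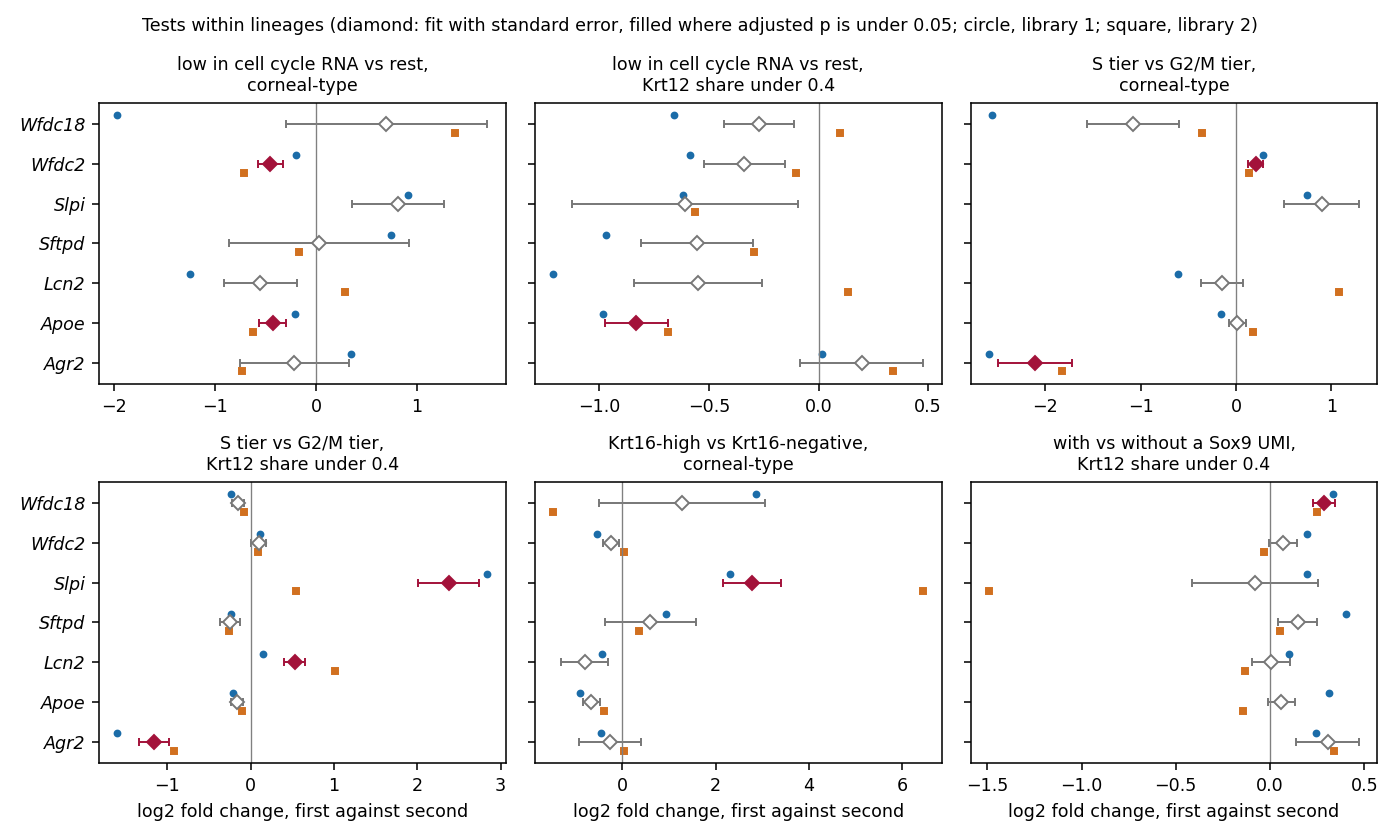
Log2 fold change of each member in the 6 comparisons that its choice did not use; diamonds with bars give the edgeR fit and its standard error, filled red where the adjusted p is under 0.05, and small circles and squares give library 1 and library 2 (none where a class of a library has no UMI; Sftpd was not tested in the corneal-type tiers). Agr2 lies left of 0 in both S against G2/M panels, and the Slpi values of the libraries lie far apart for Krt16 and for the tiers under a share of 0.4.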

How the data were processed

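The deposited file held whole-number UMI counts per gene and barcode, not normalised, for 31053 genes and 6752 barcodes of 2 libraries in 1 matrix. Libraries were made with 10x Genomics 3′ v3 chemistry, per the labels' protocols. Cell Ranger 3.1.0, Seurat 5.0.0 and the builds GRCm38 and mm10 are listed in the submitters' processing notes. How cells were called, and whether depth was equalised between libraries, is not given here by any label or header. The members and gene lists were chosen with earlier results of these data known, and the promoter motifs were chosen after the levels were seen.

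Cells were kept at 500 genes and under 20% mitochondrial UMIs (scanpy 1.11.5). Scrublet called 4 of 6188 cells doublets (0.0646%), too few for the caller to have worked, so none were removed. An alternative dropped the 3% of highest score (186 cells, 17.8% of mixed and 2.76% of corneal-type cells). CPM are UMIs per 1000000 UMIs of a sum, with exact Poisson intervals, and shares are exact binomial values with a limit of 3 counts for 0. Both cover counting error alone.

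Sums of UMIs by class, 1 per library, entered edgeR 4.0.16 (R 4.3.3; TMM, filterByExpr, robust quasi-likelihood fit, library block, adjusted p under 0.05). The Sox9 comparison drew cells by depth. Likeness used log2(CPM + 10) over genes of at least 20 CPM. Genes named are the 7 members, the 3 genes most like each, and up to 4 called genes of each list with the largest change, at least 20 CPM and the same sign in both libraries. Exceptions are stated, and some results under this rule are not reported here. DESeq2 1.42.0, other scaling, filters, cuts, no block and single libraries were alternatives. Ranking within lineages and leaving out the Slpi-richest cells were added after the data were seen. The tests were checked on simulated data. Positions are from GENCODE M21.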

Additional observations from a re-analysis of the deposited data

How the results depend on the processing

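Counts of called genes moved most with DESeq2 and without the library block. Conjunctival-type against corneal-type cells gave 2643 calls, 1747 with DESeq2 and 1530 without the block. Gpha2-positive against corneal-type cells gave 2719, 1702 and 1398, and conjunctival-type against Gpha2-positive cells 1668, 1032 and 770. Low against other corneal-type cells gave 1525, 451 and 237 (669 with the lowest 20%), and under a Krt12 share of 0.4 508, 178 and 109 (321 without top doublet scores). The S and G2/M tiers gave 2936, 588 and 744 in corneal-type cells and 1760, 227 and 423 under 0.4. Krt16 gave 299, 108 and 6 (552 unfiltered, 464 under 10% mitochondrial share), and Sox9 55, 0 and 0 (83 without scaling, 104 matched on lineage; 788 genes had an unadjusted p under 0.05 in the first fit). The cause was not tested.

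Agr2 was no longer highest in conjunctival-type cells of both libraries (0 members in place of 1) with lineages cut on thinned cells or at 6 mucosal keratin UMIs. The log2 Wfdc2 ratio of conjunctival-type to corneal-type cells was -0.077 at 6 such UMIs. Among member tests no called value reversed. Uncalled ones did in alternative fits, in the low cells for Wfdc18 (-0.19, DESeq2), Sftpd (-0.061 unscaled, -0.01 unfiltered), Slpi (0.062) and Lcn2 (0.13, both ranked within lineages) and Agr2 (-0.065, lowest 20%). In the corneal phase comparison Lcn2 (0.14, DESeq2) and Apoe (-0.082, unscaled) reversed, and for Krt16 Sftpd (-0.024, no block). For Sox9 it was Slpi (0.10 no block, 0.27 under 10% mitochondrial share, 0.014 with all cells, 0.77 matched on lineage), Lcn2 (-0.017, DESeq2) and Apoe (-0.005, without top doublet scores). Of the remaining member values 345 were counted as unchanged, 21 lost and 13 gained the threshold, and 6 values of single libraries without a test moved. For fits, unchanged meant the same direction and side. For single libraries it meant a distance from the fit within the SD of the 2 libraries or the SE, so uncalled values could change sign. Lcn2 in the low cells under a Krt12 share of 0.4 did so, at -0.55 in the fit and 0.14 in library 2. A Krt16 cut at 10 UMIs was not run, as library 2 held 29 such cells. The libraries carry no replicate number in the file, and both enter every class of a comparison, so the library block is the paired fit and the values without it are given above.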
